A study of Mus musculus with 19 samples.

Results

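The Elovl genes encode the fatty acid elongases, the membrane enzymes of the endoplasmic reticulum that lengthen fatty acids. The 7 mouse members, *Elovl1* to *Elovl7*, were taken by gene symbol from the tables of 7 tissues, brown adipose tissue (BAT) and inguinal white adipose tissue (iWAT), which together list 55740 genes. The 7-tissue and BAT tables list all 7 members, and the iWAT table used here lists 4 of the 7 members, *Elovl1*, *Elovl3*, *Elovl5* and *Elovl6*. Polyadenylated RNA was sequenced, and each value is an FPKM, a level that takes account of the length of the gene and the number of mapped reads. The 7 tissues came from wild-type (WT) C57BL/6J mice on a chow diet, not labelled as cold-exposed, with 1 library for each tissue, so they had no replicates and were described without tests. Both fat depots came from male mice on chow kept at 8 °C for 1 week, as 3 WT and 3 MCK-Musclin libraries for each depot. MCK-Musclin mice carry the whole coding sequence of Musclin, a peptide made by muscle, under the muscle creatine kinase promoter on the C57BL/6J background. This promoter is active in skeletal and heart muscle, and the cold-exposed mice were 5 months old. The comparison of genotypes addresses how fat in the cold differs when muscle makes more Musclin.

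Each cycle of elongation adds a pair of carbons from malonyl-CoA to a fatty acyl-CoA, and the elongase carries out the first and rate-limiting step, the condensation. A reductase, a dehydratase and another reductase, shared by all members, complete the cycle. The members differ in the acids they accept: *Elovl1*, *Elovl3*, *Elovl6* and *Elovl7* lengthen saturated and monounsaturated acids, *Elovl2* and *Elovl5* lengthen polyunsaturated acids, and *Elovl4* makes the longest chains of skin, retina and brain. In fat, *Elovl6* turns the palmitate made by fatty acid synthase into stearate, and *Elovl3* is known as a gene that brown fat switches on in the cold.

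The labels of the tissues were checked against marker genes before the members were read. The 4 heart markers summed to 29725 FPKM in the heart library, the 8 muscle markers to 71888 FPKM in tibialis anterior, the 6 brain markers to 5366 FPKM in brain, the 4 liver markers to 34929 FPKM in liver and the 4 intestinal markers to 1851 FPKM in small intestine. The 8 adipocyte markers summed to 12429 FPKM in white adipose and 6552 FPKM in brown adipose. Each of these lists was highest in the tissue it marks. *Ucp1*, the uncoupling protein of brown fat, was 467 FPKM in brown adipose and 0 FPKM in white adipose. The depot of the white adipose library is not given. Read totals were not analysed here, so the depth of the libraries is unknown. The steps between low FPKM values gave BAT libraries a depth of 0.892 to 1.11 relative to WT library 1, and FPKM summed to 676362 to 720852 over the genes of a BAT library and 364710 to 384104 over those of an iWAT library.

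The *Ostn* transcript, which encodes Musclin, served as a check of genotype in the cold libraries. In BAT it was 0 FPKM in the 3 WT libraries and 37.9, 31.6 and 30.3 FPKM in MCK-Musclin libraries 1 to 3. It was the only gene of 10893 tested that passed the call used throughout, an adjusted p under 0.05 in limma (adjusted p = 3.83e-06), and it was higher in 3 of 3 MCK-Musclin libraries. In iWAT it was 0, 0 and 0.225 FPKM in WT libraries 1 to 3 and 0, 5.17 and 4.21 FPKM in MCK-Musclin libraries 1 to 3. MCK-Musclin library 1 of iWAT was thus like the WT libraries in this transcript. The muscle content of the iWAT libraries also differed, since the 8 skeletal muscle markers summed to 7.89, 452 and 2409 FPKM in WT libraries 1 to 3 and to 5.98, 87.6 and 96.8 FPKM in MCK-Musclin libraries 1 to 3. The most abundant of these markers was *Mylpf* in WT library 1 and *Tnnt3* in the other 5 libraries. MCK-Musclin library 1 thus had the lowest muscle sum of the 6 libraries along with 0 FPKM of *Ostn*. Other genes did not settle its label. *Tmod2* was 1.13, 0.908 and 1.27 FPKM in WT and 4.52, 4.42 and 3.80 FPKM in MCK-Musclin libraries 1 to 3. *Tmod2* was named after its values were seen, from a test that used the label, so it cannot check that label. The 5 B cell markers were each higher in MCK-Musclin library 1 than in the WT libraries. The margin was small for *Pax5*, at 22.7 FPKM against 22.2 FPKM in WT library 1. The 5 markers summed to 262 FPKM in MCK-Musclin library 1. Their sums were 121 to 233 FPKM in the WT libraries and 354 and 344 FPKM in MCK-Musclin libraries 2 and 3. The comparison of these markers between genotypes also used the label, so they cannot check it. *Ucp1* at 173 FPKM and *Cidea* at 294 FPKM lay within the range of the WT libraries. The genotype of this library was not tested in another way. It keeps its label, and some of the values below are also given without it. Without it 178 genes were lower and 699 higher at the cutoff of the study in iWAT.

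Among the elongases of saturated and monounsaturated acids, *Elovl1*, which makes the very long saturated chains of sphingolipids, was detected in every tissue. Its level was 55.9 FPKM in small intestine, 17.6 FPKM in white adipose, 11.4 FPKM in liver, 7.76 FPKM in brain, 6.36 FPKM in brown adipose, 3.63 FPKM in heart and 1.71 FPKM in tibialis anterior. Small intestine therefore held 53.6% of the level summed over tissues and was 3.18-fold above the next tissue. *Elovl7*, another elongase of saturated chains, was 9.38 FPKM in small intestine, which was 92.7% of its sum and 15.3-fold above brain at 0.612 FPKM. Its level in the other 5 tissues was at most 0.0552 FPKM, and it was 0 FPKM in tibialis anterior. *Elovl1* and *Elovl7* were thus both highest in small intestine.

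*Elovl6*, the elongase of palmitate, was 52.9 FPKM in liver, 33.3 FPKM in brown adipose, 23.8 FPKM in brain, 17.7 FPKM in small intestine and 11.4 FPKM in white adipose. Heart at 0.375 FPKM and tibialis anterior at 0.164 FPKM had the lowest levels. In FPKM liver was 1.59-fold above brown adipose, whereas on the TPM scale, on which every library has the same sum, brain came next after liver. *Elovl3* was 6.84 FPKM in liver, 0.281 FPKM in heart, 0.0862 FPKM in brown adipose and 0 FPKM in the other 4 tissues. Its level in the brown adipose library was thus close to 0, where *Ucp1* was 467 FPKM and the 10 markers of brown and beige fat summed to 3780 FPKM.

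Among the elongases of polyunsaturated acids, *Elovl5*, which acts early in the chain that leads from dietary linoleic and linolenic acids, was at 2.31 FPKM or more in all 7 tissues. It was 54.1 FPKM in liver, 26.5 FPKM in white adipose, 25.5 FPKM in brain, 17.5 FPKM in brown adipose, 14.6 FPKM in small intestine, 6.06 FPKM in heart and 2.31 FPKM in tibialis anterior. *Elovl2*, which acts later and on longer polyunsaturated chains, was 54.2 FPKM in liver and 1.93 FPKM in brain, and at most 0.209 FPKM in the other 5 tissues. Liver held 36.9% of the *Elovl5* sum and 96.0% of the *Elovl2* sum, so these enzymes of the same pathway had about the same level in liver and parted elsewhere. *Elovl4*, the maker of the longest chains, was 13.8 FPKM in brain and 0 FPKM in the other 6 libraries.

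**Figure D1:**
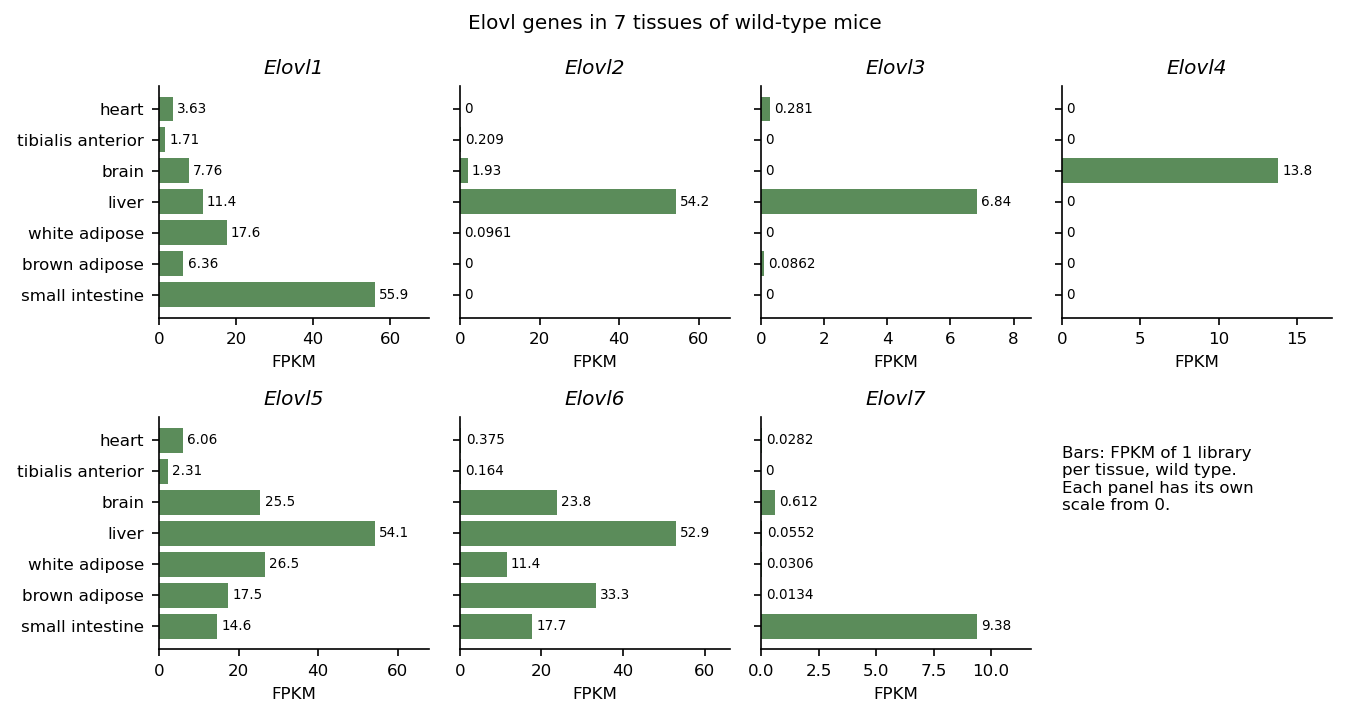
FPKM (x axis) of the 7 elongase genes in 7 tissues of WT mice (y axis), with 1 panel for each gene on its own scale from 0 and each bar 1 library. The bars of *Elovl2* and *Elovl3* are longest in liver, those of *Elovl1* and *Elovl7* in small intestine and that of *Elovl4* in brain.

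In all, 4 members were highest in liver, and this held when the values were rescaled to TPM. The highest tissue was kept on that scale for 7 of 7 members and the full order of tissues for 5 of 7. Without replicates, it could not be said which neighbours in these orders differ beyond the spread between mice. Tissues also differed in how many members reached 1 FPKM. Brain and liver had 5 such members, small intestine 4, both adipose tissues 3, and heart and tibialis anterior 2.

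FPKM values are scaled by length and so could be summed over the members of a library. The summed level was 4.40 FPKM in tibialis anterior, 10.4 FPKM in heart, 55.6 FPKM in white adipose, 57.3 FPKM in brown adipose, 73.4 FPKM in brain, 97.6 FPKM in small intestine and 179.5 FPKM in liver. The TPM sums were 7.56 in tibialis anterior, 15.3 in heart, 132 in white adipose, 80.5 in brown adipose, 186 in brain, 194 in small intestine and 322 in liver. Striated muscle therefore had the least elongase RNA and liver the most on both scales, while white adipose was above brown adipose in TPM and below it in FPKM. The makeup of the sum, which is the same on both scales, differed as well: *Elovl5* was 58.4% of it in heart and 52.6% in tibialis anterior, while liver had 30.2% *Elovl2*, 30.2% *Elovl5* and 29.5% *Elovl6*. In brain *Elovl5* was 34.7%, *Elovl6* 32.5% and *Elovl4* 18.8%. White adipose was led by *Elovl5* at 47.7%, followed by *Elovl1* at 31.6% and *Elovl6* at 20.5%. Brown adipose had the same 3 members in another order, with *Elovl6* at 58.2%, *Elovl5* at 30.5% and *Elovl1* at 11.1%. Small intestine was 57.3% *Elovl1*.

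**Figure D2:**
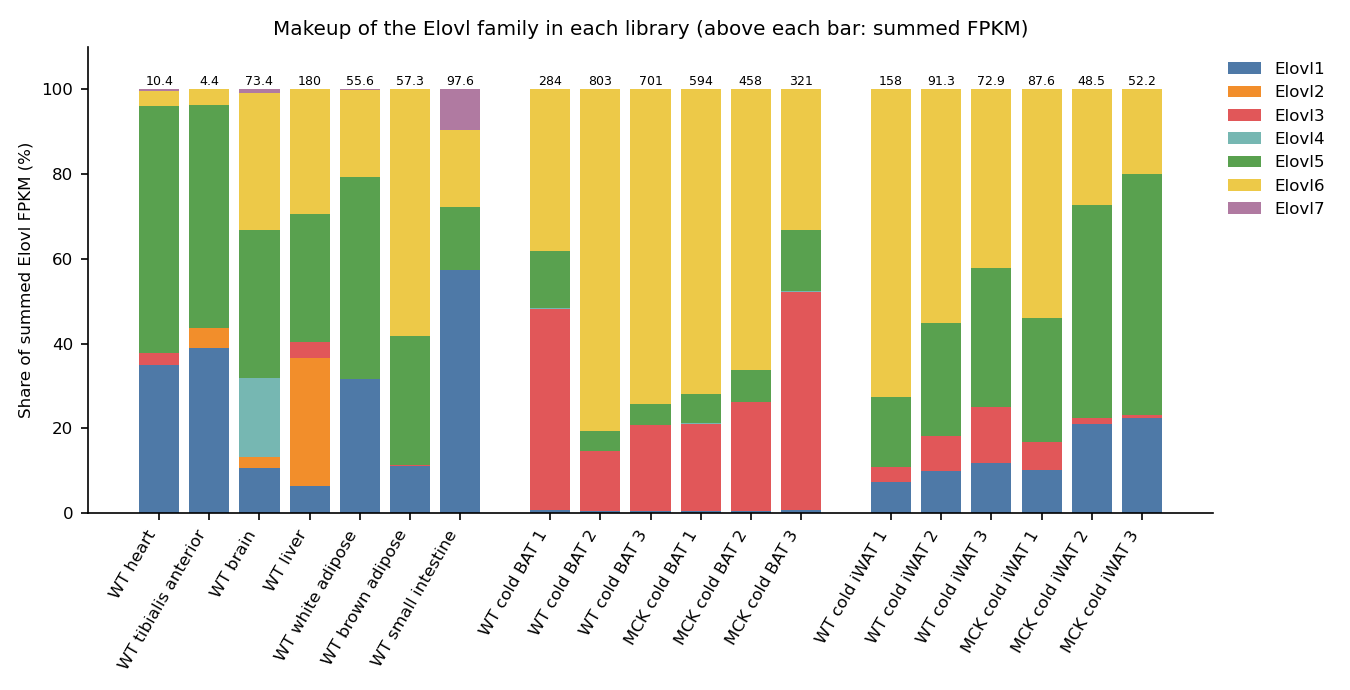
Share of each elongase gene in the summed FPKM of the family in percent (y axis) for the 19 libraries (x axis), with the summed FPKM above each stacked bar. In cold BAT the *Elovl6* share runs from 33.1% to 80.6%, and in cold iWAT from 20.0% to 72.6%. The sum in iWAT covers only the 4 members listed there.

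For each member the genes with the most similar profile were found as those with the highest Pearson correlation of log2(FPKM + 1) over the 7 tissues, among 12748 genes compared. These are descriptions over 7 libraries, and tissues in which nothing is expressed contribute to them. *Elovl1* was most like *Gmppa* (r = 0.991), *Amdhd2* (r = 0.991) and *Slc35c1* (r = 0.991), and *Elovl5* was most like *Fdxr* (r = 0.990), *Slc17a5* (r = 0.990) and *N4bp2l1* (r = 0.977). *Elovl6* was most like *Ahsa2* (r = 0.977), *Acat2* (r = 0.971) and *Ogfod2* (r = 0.959). *Elovl5* and *Elovl6* had the fewest close neighbours, since r was above 0.95 for 15 and 5 genes, against 174 genes for *Elovl1*. *Elovl2* was most like *Etnk2* (r = 0.997), *Notum* (r = 0.994) and *Cyp7b1* (r = 0.993), and *Elovl3* was most like *Serpina12* (r = 0.997), *Apcs* (r = 0.997) and *Gnmt* (r = 0.996). The profiles of these members are mainly liver against the rest, which 171 genes shared with *Elovl2* and 235 genes with *Elovl3* at r above 0.95. *Elovl7* was most like *Amn*, *Ano7* and *Pnlip*, each with r = 1.000, and had 527 such genes. For *Elovl4* 99 genes were tied at the highest r, of which *AW047730*, *Agbl4* and *Amer3* come first by symbol, because they were detected in brain and at 0 FPKM elsewhere.

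The partners of the elongases were read beside them. *Tecr*, the reductase that ends the cycle, was 93.7 FPKM in heart and 50.4 FPKM in tibialis anterior, where summed elongase RNA was lowest. *Hacd1*, a dehydratase known from muscle, was highest in tibialis anterior, at 45.1 FPKM. *Hsd17b12*, the first reductase, was 68.2 FPKM in liver, 67.8 FPKM in brown adipose and 65.0 FPKM in white adipose, and 1.84 FPKM in tibialis anterior. The partners thus did not all share the low level that the elongases had in striated muscle.

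Other enzymes of fatty acid modification had tissue profiles of their own. The desaturases *Fads1* and *Fads2*, which work with *Elovl5* and *Elovl2* on polyunsaturated acids, were 52.6 and 141 FPKM in liver, and *Fads2* was 2.57 FPKM in brown adipose. *Scd1*, which desaturates the palmitate and stearate that *Elovl6* uses and makes, was 3794 FPKM in white adipose, 1148 FPKM in brown adipose and 1040 FPKM in liver. *Fasn*, the palmitate synthase, was 121 FPKM in white adipose, where *Elovl6* was 11.4 FPKM, and 52.7 FPKM in liver, where *Elovl6* was 52.9 FPKM. The tissue with the most *Fasn* thus was not the tissue with the most *Elovl6*. *Cers2*, the ceramide synthase that takes very long acyl chains, was 65.0 FPKM in liver and 28.5 FPKM in small intestine, where *Elovl1* was highest. *Cers1* was highest in brain, at 12.9 FPKM, and *Cers3* was at most 0.0184 FPKM in all 7 tissues. Of the genes for breakdown of very long chains in peroxisomes, *Slc27a2* was 509 FPKM in liver, its highest tissue.

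The members lie on chromosomes 3, 4, 9, 13 and 19 of GRCm38, with *Elovl4* and *Elovl5* on chromosome 9 and *Elovl2* and *Elovl7* on chromosome 13. The positions in the GENCODE annotation are chr4:118428093-118432953 on the plus strand for *Elovl1* (ENSMUSG00000006390), chr13:41182381-41220405 on the minus strand for *Elovl2* (ENSMUSG00000021364) and chr19:46131897-46135694 on the plus strand for *Elovl3* (ENSMUSG00000038754). *Elovl4* (ENSMUSG00000032262) lies at chr9:83778692-83806277 on the minus strand and *Elovl5* (ENSMUSG00000032349) at chr9:77917364-77984519 on the plus strand. *Elovl6* (ENSMUSG00000041220) lies at chr3:129532355-129638495 and *Elovl7* (ENSMUSG00000021696) at chr13:108214404-108285683, both on the plus strand. The pairs on one chromosome are far apart and do not overlap. Reads were aligned without strand, so bases that exons share with a gene on the other strand cannot be assigned to either gene. *Elovl1* shares 53 bases (1.94% of its exon bases) with *Cdc20*, *Elovl3* shares 10 bases (0.506%) with *Pitx3* and *Elovl6* shares 34 bases (0.529%) with *Gm35986*. These neighbours were low beside the members: *Pitx3* was at most 0.214 FPKM and *Gm35986* 1.59 to 3.92 FPKM in cold BAT, and *Cdc20* was 0.903 to 1.94 FPKM in cold iWAT. In small intestine, *Cdc20* was 17.2 FPKM and *Elovl1* 55.9 FPKM.

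Promoter sequences, from 250 bases before to 50 bases after the start of the gene, were taken from RefSeq (GRCm38.p6) for 6 of the 7 members, all but *Elovl3*. The promoters of *Elovl5* and *Elovl6* are shown because *Elovl5* varied little and *Elovl6* widely between the libraries of both cold depots. They lie at chr9:77917115-77917414 and chr3:129532136-129532435, both on the plus strand, and are printed 5′ to 3′, with capitals for matches to 5 motifs searched on both strands.
Elovl5: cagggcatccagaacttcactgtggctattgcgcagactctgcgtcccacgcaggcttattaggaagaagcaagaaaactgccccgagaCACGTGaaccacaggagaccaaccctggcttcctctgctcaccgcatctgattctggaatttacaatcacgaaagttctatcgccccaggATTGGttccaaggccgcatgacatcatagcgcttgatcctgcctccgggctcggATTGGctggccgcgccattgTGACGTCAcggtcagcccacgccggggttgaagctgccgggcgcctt
Elovl6: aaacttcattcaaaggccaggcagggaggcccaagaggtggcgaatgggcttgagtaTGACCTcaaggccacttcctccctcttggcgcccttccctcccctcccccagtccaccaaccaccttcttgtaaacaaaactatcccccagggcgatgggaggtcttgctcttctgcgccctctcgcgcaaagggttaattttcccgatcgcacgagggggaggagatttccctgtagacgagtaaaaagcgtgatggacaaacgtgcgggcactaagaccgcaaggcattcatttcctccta
The motifs were CACGTG (the E-box), CCAAT or ATTGG (the CCAAT box), AGGTCA or TGACCT (a core site of nuclear receptors), TGACG or CGTCA (the short cyclic AMP response element) and GGGCGG or CCGCCC (the GC box). The *Elovl5* promoter holds, counted from its first printed base, CACGTG at base 90, ATTGG at bases 180 and 234, and TGACG at base 254 overlapping CGTCA at base 257, with 57.7% G and C. The *Elovl6* promoter holds TGACCT at base 58 and no other of these motifs, with 55.7% G and C. Of 32851 promoters of this length, 7.15% hold CACGTG, 37.4% the CCAAT box, 16.3% AGGTCA, 20.8% TGACG and 35.7% the GC box, each on either strand. CACGTG was also found in the *Elovl4* promoter, and AGGTCA on either strand in 1 of 2 *Elovl1* promoters. A match describes letters in this window, and binding was not measured.

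In BAT of cold-exposed WT mice, the family was led by *Elovl6* and *Elovl3*. *Elovl3*, the cold-responsive member, was 135, 114 and 142 FPKM in WT libraries 1 to 3, against 0.0862 FPKM in the brown adipose library of the 7 tissues. *Elovl6* was 108, 647 and 520 FPKM in the cold WT libraries, against 33.3 FPKM. The brown adipose and BAT tables were normalized separately and come from different mice, so these levels stand side by side without a test. *Ucp1* was 2778 to 3792 FPKM in the cold WT libraries and 467 FPKM in the brown adipose library. In white fat, *Elovl3* was 5.39 to 9.58 FPKM in cold WT iWAT and 0 FPKM in the white adipose library, and *Elovl6* was 30.8 to 115 FPKM against 11.4 FPKM. The depot of the white adipose library is not given, so a difference of depot cannot be told apart from one of cold. These levels, too, stand side by side without a test. *Elovl1* went the other way in both of these comparisons, at 1.80 to 3.05 FPKM in cold WT BAT against 6.36 FPKM in brown adipose, and at 8.62 to 11.6 FPKM in cold WT iWAT against 17.6 FPKM in white adipose.

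In cold iWAT, *Elovl3* and *Elovl6* had lower mean levels in MCK-Musclin than in WT mice, while *Elovl1* and *Elovl5* had similar levels. *Elovl3* was 5.39, 7.61 and 9.58 FPKM in WT libraries 1 to 3 and 5.79, 0.708 and 0.30 FPKM in MCK-Musclin libraries 1 to 3. The low values were those of MCK-Musclin libraries 2 and 3, whereas MCK-Musclin library 1 lay above WT library 1, so the groups overlapped. The group means were 7.53 ± 2.1 FPKM in WT and 2.27 ± 3.06 FPKM in MCK-Musclin mice (SD, n = 3). In limma the log2 fold change of *Elovl3* was -1.76 (SE 0.58, 95% confidence interval -3.11 to -0.41), with an unadjusted p of 0.0177 and an adjusted p of 0.213. It did not pass the call, and 2 of 3 MCK-Musclin libraries lay below all WT libraries. Without MCK-Musclin library 1 the log2 fold change was -2.49, and the adjusted p in limma was 0.144. In bulk tissue, fewer cells of a type and less RNA per cell cannot be told apart.

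*Elovl6* was 115, 50.3 and 30.8 FPKM in WT libraries 1 to 3 and 47.2, 13.2 and 10.4 FPKM in MCK-Musclin libraries 1 to 3. MCK-Musclin libraries 2 and 3 were again the lowest of the 6, and MCK-Musclin library 1 lay between WT libraries 2 and 3, so that the groups overlapped. The means were 65.4 ± 44.1 FPKM in WT and 23.6 ± 20.5 FPKM in MCK-Musclin mice (SD, n = 3). The log2 fold change of *Elovl6* in limma was -1.53 (SE 0.63, 95% confidence interval -3.01 to -0.05), with an unadjusted p of 0.0442 and an adjusted p of 0.287. Single libraries moved this value, which was -1.02 when WT library 1 was left out and -2.17 when MCK-Musclin library 1 was, with adjusted p of 0.447 and 0.195 in limma. Neither passed the call.

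*Elovl1* was 11.6, 9.09 and 8.62 FPKM in WT libraries 1 to 3 and 8.93, 10.2 and 11.7 FPKM in MCK-Musclin libraries 1 to 3. *Elovl5* was 26.3, 24.3 and 23.9 FPKM in the WT libraries and 25.7, 24.4 and 29.7 FPKM in the MCK-Musclin libraries. The groups overlapped for both genes, and the values lay close together. In limma the log2 fold change of *Elovl1* was 0.07 (SE 0.15, 95% confidence interval -0.27 to 0.41, adjusted p = 0.850), and its sign changed with median-ratio scaling. The log2 fold change of *Elovl5* was 0.09 (SE 0.10, 95% confidence interval -0.16 to 0.34, adjusted p = 0.710 in limma). These intervals bound the difference in the steady members more tightly than in *Elovl3* and *Elovl6*.

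**Figure D3:**
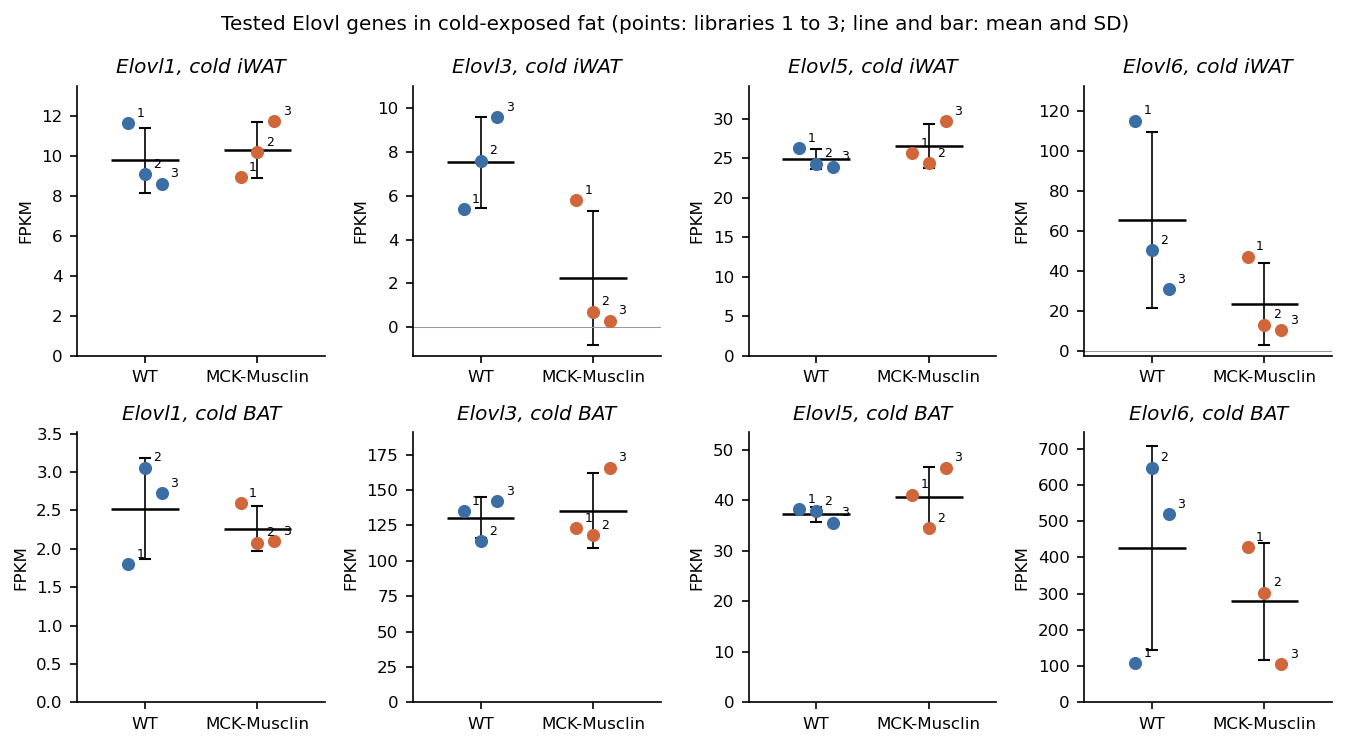
FPKM (y axis) of *Elovl1*, *Elovl3*, *Elovl5* and *Elovl6* in the 6 cold iWAT libraries (top) and the 6 cold BAT libraries (bottom) by genotype (x axis), with points for libraries 1 to 3 and lines and bars for mean and SD. In iWAT the *Elovl3* and *Elovl6* points of MCK-Musclin libraries 2 and 3 lie below all WT points.

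Over the family in iWAT, 4 members were tested and 0 passed the call in limma, while 2 had an unadjusted p under 0.05. Of all 12197 genes tested, 0 passed (0%) and 2012 had an unadjusted p under 0.05. The study's own cutoff takes genes past a log2 fold change of 0.5 at an unadjusted p under 0.05, which the study took from DESeq2 and which came from limma here. By it 2 of 4 members were lower in MCK-Musclin mice, *Elovl3* and *Elovl6*, beside 110 of 12197 genes (0.902%), and 0 members were higher, beside 615 genes (5.04%). The lower genes numbered 213 without WT library 1. The groups were apart, with no overlap, for 0 of 4 members and for 2846 genes (23.3%). More genes in this comparison were therefore higher than lower at the cutoff, and the members at the cutoff were on the lower side. A mean of 4.90 FPKM put *Elovl3* under a stricter filter at 5 FPKM, which left 1 member at the cutoff, and leaving out 1 library gave 0 to 2. At this cutoff *Elovl3* was lost without WT library 3 or MCK-Musclin library 2 or 3, and *Elovl6* without WT library 1 or 2 or MCK-Musclin library 2 or 3.

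The makeup of elongase RNA in iWAT followed these levels. The summed level of the 4 listed members was 158, 91.3 and 72.9 FPKM in WT libraries 1 to 3 and 87.6, 48.5 and 52.2 FPKM in MCK-Musclin libraries 1 to 3. *Elovl6* made up 72.6%, 55.1% and 42.2% of it in the WT libraries and 53.9%, 27.3% and 20.0% in the MCK-Musclin libraries. *Elovl5* led instead in MCK-Musclin libraries 2 and 3, with 50.3% and 56.9%. The ratio of *Elovl6* to *Elovl5* FPKM was 4.37, 2.07 and 1.29 in WT and 1.84, 0.543 and 0.352 in MCK-Musclin libraries 1 to 3. *Elovl3* was 3.40%, 8.34% and 13.1% of the sum in the WT libraries and 6.61%, 1.46% and 0.575% in the MCK-Musclin libraries. *Elovl3* and *Elovl6* did not follow each other among the WT libraries, since *Elovl3* was highest in WT library 3 and *Elovl6* in WT library 1.

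The order of the iWAT libraries by *Elovl3* level was WT 3, WT 2, MCK-Musclin 1, WT 1, MCK-Musclin 2 and MCK-Musclin 3. This order was looked at after the values had been seen, and it describes 6 libraries. Of the 12192 other genes compared, 35 (0.287%) had the same order, against a median of 14 genes for each of the 720 possible orders, and the order of *Elovl5* was shared by 35 genes as well. Those in the order of *Elovl3* included 7 of the 10 listed markers of brown and beige adipocytes, the fat cells that burn fuel for heat: *Ucp1*, *Cidea*, *Cox7a1*, *Dio2*, *Cpt1b*, *Slc27a2* and *Fabp3*. *Ucp1* was 130, 248 and 346 FPKM in WT libraries 1 to 3 and 173, 31.6 and 2.91 FPKM in MCK-Musclin libraries 1 to 3. *Cidea*, a lipid droplet protein of such cells, was 290, 358 and 427 FPKM in WT and 294, 103 and 70.2 FPKM in MCK-Musclin libraries 1 to 3. *Elovl3* and these markers were thus high in the same libraries and low in the same libraries of both genotypes.

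All 10 brown and beige markers were tested in iWAT, 0 of 10 passed the call in limma, 7 of 10 had an unadjusted p under 0.05 and were lower at the cutoff, beside 0.902% of all genes lower at the cutoff, and all 10 log2 fold changes were below 0. Of all 12197 genes tested in iWAT, 4715 were below 0 and 2012 had an unadjusted p under 0.05 in limma. The median of the list was -1.36, beside 0.06 for all genes tested, and it was -1.96 without MCK-Musclin library 1. With 1 library left out, *Cidea* ran from -2.05 to -1.02. Its unadjusted p in limma was under 0.05 in 3 of 6 such settings, so it left the cutoff in the others. The same count held for *Slc27a2*. The summed level of the list was 593, 960 and 1182 FPKM in WT libraries 1 to 3 and 669, 234 and 119 FPKM in MCK-Musclin libraries 1 to 3, with *Cidea* the most abundant. *Slc27a2* also belongs to the peroxisomal list, and *Cox7a1*, *Cpt1b* and *Fabp3* were also abundant in tibialis anterior, at 197, 45.5 and 196 FPKM, where *Ucp1* was 0 FPKM. *Ucp1* was above 0 in all 6 iWAT libraries. The part of brown and beige cells in the *Elovl3* level was not tested. *Elovl6* had another order, with WT 1 first, then WT 2, MCK-Musclin 1, WT 3, MCK-Musclin 2 and MCK-Musclin 3, which 20 other genes shared (0.164%).

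**Figure D4:**
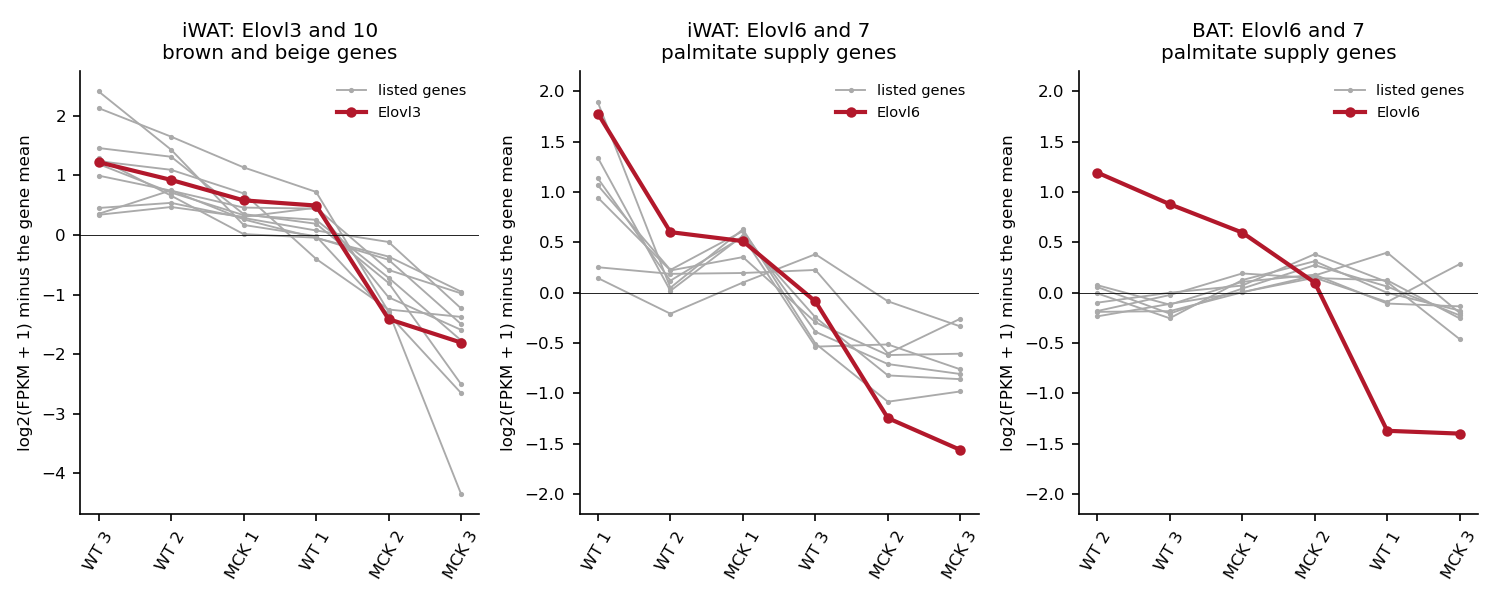
Level of *Elovl3* with 10 brown and beige markers in iWAT, and of *Elovl6* with 7 palmitate supply genes in iWAT and in BAT, as log2(FPKM + 1) minus the mean of each gene (y axis) in the 6 libraries (x axis), with 1 line for each gene. In iWAT *Elovl3* lies among the marker lines, and in BAT *Elovl6* spans a wider range than the supply genes.

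Markers of other cells in iWAT also differed between the libraries. The 5 B cell markers, led by *Cd79a*, summed to 233, 139 and 121 FPKM in WT and 262, 354 and 344 FPKM in MCK-Musclin libraries 1 to 3, with 5 of 5 higher at the cutoff. The 5 T cell markers summed to 125, 77.5 and 105 FPKM in WT and 151, 195 and 162 FPKM in MCK-Musclin libraries 1 to 3, with 4 of 5 higher at the cutoff. MCK-Musclin libraries had the higher sums for both lists. Of all genes tested in iWAT, 5.04% were higher at the cutoff. The 5 macrophage markers, led by *Lyz2*, summed to 514, 452 and 454 FPKM in WT and 696, 499 and 702 FPKM in MCK-Musclin libraries 1 to 3, with 1 of 5 higher at the cutoff, *Cd68*. The 8 adipocyte markers summed to 13853, 15184 and 15038 FPKM in WT and 12261, 13482 and 13935 FPKM in MCK-Musclin libraries 1 to 3, with 0 of 8 at the cutoff. Of 7 epithelial markers 5 are listed, and they summed to at most 5.12 FPKM in a library. Of 4 heart markers 2 were tested, *Tnnt2* and *Tnni3*, and 2 of 2 were higher at the cutoff. In these lists 0 genes passed the call in limma. An unadjusted p under 0.05 in limma was reached by 5 of 5 B cell, 5 of 5 T cell, 2 of 5 macrophage and 1 of 8 adipocyte markers. It was also reached by 1 of 1 tested epithelial markers (*Epcam*), 2 of 2 tested heart markers and 2012 of all 12197 genes. The part of lymphocytes, macrophages or muscle in the elongase levels was not tested.

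The 7 genes listed for the supply of malonyl-CoA and palmitate, the substrates of *Elovl6*, also had log2 fold changes below 0 in iWAT. The list includes *Mlycd*, which breaks malonyl-CoA down. *Fasn* was 546, 218 and 181 FPKM in WT libraries 1 to 3 and 319, 121 and 118 FPKM in MCK-Musclin libraries 1 to 3. *Acly*, which makes cytosolic acetyl-CoA from citrate, was 417, 116 and 78.4 FPKM in WT and 173, 52.2 and 56.1 FPKM in MCK-Musclin libraries 1 to 3. As with *Elovl6*, WT library 1 was the highest and MCK-Musclin libraries 2 and 3 were the lowest for both genes, and the groups overlapped. In limma the log2 fold change was -0.74 for *Fasn* (SE 0.51, adjusted p = 0.506) and -0.96 for *Acly* (SE 0.68, adjusted p = 0.519). Leaving out WT library 1 gave -0.26 for *Fasn* and -0.25 for *Acly*, and leaving out MCK-Musclin library 1 gave -1.21 and -1.51. All 7 supply genes were tested, 7 of 7 had a log2 fold change below 0 with a median of -0.58, 0 passed the call in limma, 0 were at the cutoff and 1 had an unadjusted p under 0.05. Of all 12197 genes tested in iWAT, 4715 had a log2 fold change below 0 and 2012 an unadjusted p under 0.05 in limma. With the replicate number as a block, which no label supports, *Fasn* (unadjusted p = 0.000616) and *Acly* (unadjusted p = 0.00207) were at the cutoff with the same fold changes. The list median was -0.25 when WT library 1 was left out and -0.90 when MCK-Musclin library 1 was. The ratio of *Elovl6* to *Fasn* FPKM was 0.211, 0.231 and 0.170 in WT and 0.148, 0.109 and 0.0884 in MCK-Musclin libraries 1 to 3. It was thus lower in all 3 MCK-Musclin libraries than in the WT libraries, with 0.148 and 0.170 the nearest values. Groups without overlap were found for 23.3% of all genes tested in iWAT. The ratio was formed after the values had been seen and was given no test.

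In the other steps of the pathway in iWAT, genes of a list lay on both sides of their WT level. The 6 partners of the elongation cycle had a median log2 fold change of 0.05, and 0 of 6 passed the call in limma, were at the cutoff or had an unadjusted p under 0.05. Among them *Hsd17b12* had the lowest value, at 146, 127 and 98.5 FPKM in WT and 130, 51.1 and 60.5 FPKM in MCK-Musclin libraries 1 to 3 (log2 fold change -0.72, SE 0.34, adjusted p = 0.339 in limma). MCK-Musclin libraries 2 and 3 were the lowest here as well, and the value was -1.12 without MCK-Musclin library 1. The unadjusted p of *Hsd17b12* in limma was under 0.05 in 1 of 6 settings with 1 library left out, at 0.000801. It was also under 0.05 in 1 of 8 other alternatives. Those alternatives ran from -0.80 to -0.53, so *Hsd17b12* was at the cutoff in that one. Of 7 desaturases 5 were tested, with a median of 0.02, and of 6 ceramide synthases 4 were tested, with a median of 0.20. In these lists 0 genes were at the cutoff or had an unadjusted p under 0.05 in limma. Single genes varied more, as *Scd2*, a desaturase, was 31.6, 13.4 and 4.36 FPKM in WT and 6.19, 3.91 and 11.3 FPKM in MCK-Musclin libraries 1 to 3. *Cers5*, a ceramide synthase, was 9.04, 9.39 and 7.20 FPKM in WT and 10.1, 9.90 and 10.7 FPKM in MCK-Musclin libraries 1 to 3, and its groups did not overlap, as was so for 23.3% of all genes tested in iWAT.

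Peroxisomal breakdown of very long chains and the regulators of lipid synthesis held the other genes at the cutoff. All 10 peroxisomal genes were tested, with a median log2 fold change of -0.28 and 9 values below 0. Of all 12197 genes tested in iWAT, 4715 had a log2 fold change below 0, and 0.902% were lower at the cutoff. At the cutoff 3 of 10 were lower: *Abcd3*, a transporter of the peroxisomal membrane (log2 fold change -0.64, adjusted p = 0.171), *Slc27a2*, an acyl-CoA synthetase (-1.26, adjusted p = 0.235), and *Ehhadh*, an enzyme of the peroxisomal cycle (-0.58, adjusted p = 0.280), all in limma. With 1 library left out, *Abcd3* stayed at the cutoff, from -0.82 to -0.52. *Slc27a2* ran from -1.60 to -0.83 and left the cutoff without WT library 2 or 3 or MCK-Musclin library 3. *Ehhadh* ran from -0.85 to -0.38 and left it without WT library 2 or 3 or MCK-Musclin library 2 or 3. Of the 10 regulators, with a median of -0.42, 2 were lower at the cutoff, beside the same 0.902% of all genes. These were *Mlxipl*, the carbohydrate-responsive activator of lipogenic genes (log2 fold change -0.58, adjusted p = 0.190 in limma), and *Ppara*, the receptor that drives fatty acid oxidation (-0.65, adjusted p = 0.280 in limma). *Srebf1*, an activator of *Elovl6* in textbook accounts, was 52.5, 39.6 and 44.6 FPKM in WT and 42.0, 32.0 and 29.3 FPKM in MCK-Musclin libraries 1 to 3. *Mlxipl* was short of the cutoff at -0.41 when WT library 1 was left out and at -0.47 when MCK-Musclin library 1 was. *Ppara* was -0.88 in both of these settings and left the cutoff in the other 4. Centring on adipocyte markers took *Abcd3* to -0.45, *Ehhadh* to -0.39, *Mlxipl* to -0.39 and *Ppara* to -0.46, all short of the cutoff, and *Slc27a2* to -1.08, still at it. Without MCK-Musclin library 1 the medians were -0.33 for the peroxisomal genes and -0.43 for the regulators. Neither list had a gene that passed the call.

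In cold BAT, the genotypes overlapped in the level of every member tested. *Elovl3* was 135, 114 and 142 FPKM in WT libraries 1 to 3 and 123, 118 and 166 FPKM in MCK-Musclin libraries 1 to 3. The groups overlapped, with means of 130.5 ± 14.6 FPKM and 136 ± 26.3 FPKM (SD, n = 3). The log2 fold change of *Elovl3* in limma was 0.04 (SE 0.15, 95% confidence interval -0.30 to 0.39, adjusted p = 0.992).

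*Elovl6* was 108, 647 and 520 FPKM in WT libraries 1 to 3 and 428, 303 and 106 FPKM in MCK-Musclin libraries 1 to 3. Each genotype had 1 low library, WT library 1 and MCK-Musclin library 3, and the other 4 libraries were at 303 FPKM or more, so the groups overlapped. The means were 425 ± 282 FPKM in WT and 279 ± 162 FPKM in MCK-Musclin mice (SD, n = 3). The log2 fold change in limma was -0.47 (SE 0.74, 95% confidence interval -2.19 to 1.26, adjusted p = 0.978), an interval that holds both lower and higher levels. Without WT library 1 the value was -1.27 and without MCK-Musclin library 3 it was 0.12, so single libraries set its direction.

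*Elovl5* was 38.3, 37.8 and 35.6 FPKM in WT libraries 1 to 3 and 41.1, 34.5 and 46.4 FPKM in MCK-Musclin libraries 1 to 3. *Elovl1* was 1.80, 3.05 and 2.72 FPKM in WT and 2.60, 2.08 and 2.1 FPKM in MCK-Musclin libraries 1 to 3. The groups overlapped for both. Their log2 fold changes in limma were 0.12 for *Elovl5* (SE 0.12, 95% confidence interval -0.16 to 0.39, adjusted p = 0.968) and -0.10 for *Elovl1* (SE 0.17, 95% confidence interval -0.49 to 0.29, adjusted p = 0.982). The remaining members were under the filter of a mean of 1 FPKM. *Elovl4* was 0.680, 0.412 and 0.420 FPKM in WT and 0.153, 0.428 and 0.481 FPKM in MCK-Musclin libraries 1 to 3. *Elovl2* and *Elovl7* were each above 0 in 1 library of the 6, at 0.0395 FPKM in WT library 3 and 0.0260 FPKM in WT library 1.

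Of the 7 members listed in BAT, 4 were tested, 0 passed the call in limma and 0 had an unadjusted p under 0.05, while over all 10893 genes 1 passed (0.00918%) and 533 had an unadjusted p under 0.05. At the study's cutoff for BAT, where the log2 fold change has to pass 0.3 at the same unadjusted p, 0 members were lower beside 234 genes (2.15%), and 0 were higher beside 202 genes (1.85%). The groups were apart for 0 of 4 members and for 1090 genes (10%). Among BAT markers, the 8 of skeletal muscle summed to 319, 449 and 303 FPKM in WT and 1021, 492 and 716 FPKM in MCK-Musclin libraries 1 to 3, with 7 of 8 higher at the cutoff and *Tnnt3* or *Myh4* the most abundant. Tibialis anterior had 0 FPKM of *Elovl3* and 0.164 FPKM of *Elovl6*, and the part of muscle in the BAT levels was not tested. The 8 adipocyte markers summed to 8442, 8069 and 8798 FPKM in WT and 7750, 7592 and 8323 FPKM in MCK-Musclin libraries 1 to 3. The 10 brown and beige markers summed to 10867, 9405 and 9638 FPKM in WT and 9701, 8979 and 10459 FPKM in MCK-Musclin libraries 1 to 3, with 1 of 10 lower at the cutoff. The 5 macrophage markers summed to 105 FPKM in MCK-Musclin library 1 and 31.9 to 40.7 FPKM in the other 5 libraries. Of the 5 macrophage markers, 1 was higher at the cutoff, *Csf1r*, at 2.08, 2.03 and 2.02 FPKM in WT and 3.79, 3.41 and 3.78 FPKM in MCK-Musclin libraries 1 to 3. B cell, T cell and epithelial sums in BAT were at most 0.938, 1.87 and 1.41 FPKM.

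The range of *Elovl6* in BAT was wide for a gene of its level. Its highest library was 6.09-fold above its lowest, and 1.51% of 10881 genes had a ratio as large. *Elovl1*, *Elovl3* and *Elovl5* had ratios of 1.70, 1.45 and 1.35. In iWAT the wide ranges were those of *Elovl3*, 31.9-fold, and *Elovl6*, 11.0-fold, which 0.378% and 0.657% of 12177 genes reached, while *Elovl1* and *Elovl5* had 1.36-fold and 1.24-fold. *Elovl6* was thus variable in both depots, *Elovl3* in iWAT, and *Elovl1* and *Elovl5* in neither.

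*Fasn* and *Acly* varied less than *Elovl6* in BAT. *Fasn* was 1043, 1040 and 866 FPKM in WT and 1029, 1209 and 855 FPKM in MCK-Musclin libraries 1 to 3, and *Acly* was 1105, 734 and 738 FPKM in WT and 840, 944 and 729 FPKM in MCK-Musclin libraries 1 to 3. The ratio of *Elovl6* to *Fasn* FPKM was 0.104, 0.622 and 0.601 in WT and 0.416, 0.250 and 0.124 in MCK-Musclin libraries 1 to 3, so it followed *Elovl6*. The order of the BAT libraries by *Elovl6* was shared by 19 other genes (0.175%), beside a median of 15 genes for each order. *Elovl6* made up 38.1%, 80.6% and 74.2% of summed elongase FPKM in WT and 71.9%, 66.1% and 33.1% in MCK-Musclin libraries 1 to 3. *Elovl3* was the larger share in the pair of libraries with low *Elovl6*, 47.6% in WT library 1 and 51.6% in MCK-Musclin library 3, against 14.2% to 25.8% in the others.

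In the pathway lists of BAT, 0 genes passed the call in limma or reached the cutoff. The 7 supply genes had a median log2 fold change of 0.06, with 5 of 7 above 0 and 1 with an unadjusted p under 0.05. That gene was *Mlycd*, which breaks down malonyl-CoA, at 23.1, 20.8 and 22.7 FPKM in WT and 24.7, 27.4 and 30.2 FPKM in MCK-Musclin libraries 1 to 3 (log2 fold change 0.29, adjusted p = 0.968 in limma). Its groups did not overlap, nor did those of *Tecr*, a partner of the elongation cycle, or of *Ehhadh*, a peroxisomal gene. This was so for 10% of all genes tested in BAT. The 5 partners tested had a median of -0.24, and *Tecr* was 70.9, 91.1 and 67.9 FPKM in WT and 65.2, 65.3 and 53.4 FPKM in MCK-Musclin libraries 1 to 3 (log2 fold change -0.31, adjusted p = 0.968 in limma). The medians were 0.04 for 5 desaturases, -0.01 for 3 ceramide synthases, -0.07 for 10 peroxisomal genes and -0.07 for 10 regulators, beside -0.01 for all genes tested. All 10 peroxisomal values were below 0, as were those of 5693 of 10893 genes tested. *Ehhadh* was at -0.25 (adjusted p = 0.968 in limma).

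**Figure D5:**
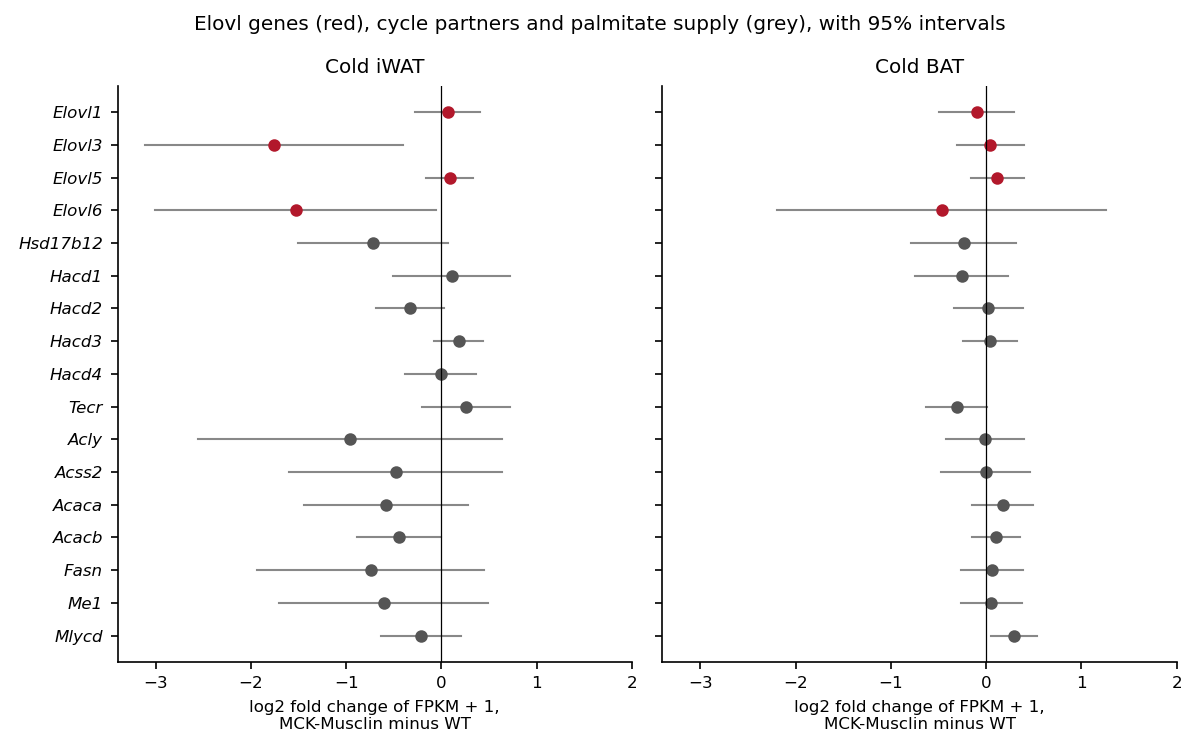
Log2 fold change of MCK-Musclin against WT mice with 95% confidence intervals from limma (x axis) for the members, 6 partners and 7 supply genes (y axis) in iWAT and in BAT, where each point is 1 gene and 3 libraries per genotype. The intervals of *Elovl3* and *Elovl6* lie below 0 in iWAT and cross 0 in BAT.

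Whether the genotypes differed more in one depot than in the other was tested as the difference of the log2 fold changes, iWAT minus BAT, over the 12 cold libraries. The fit took the libraries as independent, and whether both depots came from the same mice is not stated in the labels. It was -1.80 for *Elovl3* (SE 0.66, unadjusted p = 0.0185, adjusted p = 0.324 in limma). For *Elovl6* it was -1.06 (SE 1.09, adjusted p = 0.755 in limma), and it ran from -1.70 to -0.26 with 1 library left out. The difference was 0.17 for *Elovl1* (SE 0.23, adjusted p = 0.833) and -0.03 for *Elovl5* (SE 0.16, adjusted p = 0.970), both in limma. The call was passed by 0 of 4 members, with 1 at an unadjusted p under 0.05, and by 1 of 12295 genes tested (0.00813%), *Tmod2*, which was named after its values were seen, with 1464 at an unadjusted p under 0.05. The difference of *Elovl3* depended on the library labelled MCK-Musclin 1 of iWAT: without it the value was -2.53 and the adjusted p in limma was 0.0174, and over the settings that leave out 1 library the adjusted p was 0.0174 to 0.511. With all 12 libraries the depots were not shown to differ for any member.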

How the data were processed

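Reads were cleaned by the authors (fastp, Bowtie2) and aligned to GRCm38 by HISAT2 2.1.0, and the authors deposited FPKM for each gene and library. Their processing notes list Bowtie, Bowtie2 2.4.1 and Cuffdiff 2.1.137, while the methods of the study name StringTie for FPKM and another Bowtie2 version; which tool made the values is not settled. All 19 libraries were used, and 287 repeated gene lines with identical values, in the tissue table and again in the BAT table, were counted once. The iWAT table also holds the authors' own DESeq2 comparison (fold changes, p-values, false discovery rates and group means), which was not used. For each depot, limma 3.58.1 in R 4.3.3 (lmFit, then eBayes with its trend option) compared the genotypes on log2(FPKM + 1) over genes with a mean of at least 1 FPKM, and p-values were adjusted by Benjamini-Hochberg over all of them. The difference between depots was fitted over 12 libraries. Values were read with Python 3.11.15, numpy 2.4.6 and pandas 2.3.3, and figures were drawn with matplotlib 3.10.9. Named genes were the members, the genes of 6 pathway lists and 11 marker lists, *Ostn*, and the 3 genes most like each member among those that reach 5 FPKM and whose symbols are not of the Gm or Rik kind. Other genes, those sharing exon bases with a member included, were named after their values were seen. The values of 1 listed gene are not reported here. The members and lists were chosen with earlier results of these data known. Alternatives were other pseudocounts, filters, scalings, variance models, a replicate block and leaving out each library.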

Additional observations from a re-analysis of the deposited data

How the results depend on the processing

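Of 686 alternative values, 638 kept their direction and their side of the threshold or moved little, and 13 changed sign. *Elovl3* and *Elovl6* stayed below 0 in iWAT in every setting run, at -2.49 to -1.29 and -2.17 to -1.02 with 1 library left out. With 1 library left out, the value ran from -0.023 to 0.19 for *Elovl1* in iWAT, -0.26 to 0.011 for *Elovl1* in BAT, -0.11 to 0.13 for *Elovl3* in BAT, -1.27 to 0.12 for *Elovl6* in BAT and -0.14 to 0.072 for the *Elovl5* difference between depots. *Elovl1* was -0.0047 in iWAT with median-ratio scaling and 0.053 in BAT after centring on adipocyte markers; the cause was not tested. The members at the study's cutoff in iWAT numbered 1 with a mean of at least 5 FPKM, a filter that *Elovl3* does not pass, and 0 to 2 with 1 library left out. The members called for the difference between depots numbered 0 to 1.

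Genes lower and higher at the cutoff in iWAT were 201 and 605 on the TPM scale, 187 and 426 with median-ratio scaling, 32 and 1720 after centring and 71 and 433 with a mean of at least 5 FPKM. In BAT they were 46 and 525 after centring and 114 and 102 with a mean of at least 5 FPKM. Centring moved the median of all genes from 0.06 to 0.25 in iWAT and from -0.01 to 0.14 in BAT, and the list medians in iWAT to -0.09 for peroxisomal genes, -0.23 for regulators and 0.39 for ceramide synthases. It gave 8 calls in limma in iWAT, and leaving out WT library 1 gave 86, with 0 members among them.

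No label pairs the libraries of the genotypes by number. Deviations from the group mean of same-numbered WT and MCK-Musclin libraries had correlations across genes, which are not independent, of 0.0615 to 0.235 in iWAT and -0.0951 to 0.00937 in BAT; pairs of unlike number had -0.180 to 0.0702 in iWAT and -0.0842 to 0.0795 in BAT. The best partner had the same number for 5 of 6 libraries in iWAT and 0 of 6 in BAT. With the number as a block, *Elovl6* in iWAT was -1.53 with an unadjusted p of 5.97e-05 and an adjusted p of 0.225 in limma, and the adjusted p over the alternatives was 0.181 to 0.556. The block gave 0 calls in iWAT, with 1956 genes at an unadjusted p under 0.05, and 1 call in BAT.

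With 3 libraries per genotype and unknown read totals, wide intervals limit the statements on *Elovl3* and *Elovl6*. The tissues have 1 library each. The iWAT table used here lists 4 of the 7 members, so *Elovl2*, *Elovl4* and *Elovl7* were not analysed there. That table holds 13756 genes, against 55487 for BAT, and how they were selected is not given in the sources used here. Shares of all genes, FPKM sums and TPM values of iWAT refer to that selection.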

Other observations

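The genes that shared the wide range of *Elovl6* in BAT were looked at after their values had been seen. Of the 438 genes with a mean of at least 100 FPKM in BAT, 6 had a ratio of highest to lowest library as large as that of *Elovl6*, itself included. The largest ratios were those of *Mir8114*, *Gm22133* and *Gm27505*, whose libraries ran from 0.133 to 578 FPKM, 0.144 to 572 FPKM and 0.199 to 135 FPKM. The others were *Gapdh*, an enzyme of glycolysis, and *Agpat2*, an acyltransferase of triglyceride synthesis. *Gapdh* was 34.2, 529 and 394 FPKM in WT and 37.5, 32.0 and 380 FPKM in MCK-Musclin libraries 1 to 3. *Agpat2* was 238, 1721 and 211 FPKM in WT and 206, 251 and 225 FPKM in MCK-Musclin libraries 1 to 3. *Elovl6*, *Gapdh* and *Agpat2* did not share an order of libraries: *Gapdh* was low in MCK-Musclin libraries 1 and 2, where *Elovl6* was 428 and 303 FPKM, and *Agpat2* stood out in WT library 2 alone. In iWAT *Agpat2* was 139, 704 and 82.7 FPKM in WT and 110, 62.4 and 72.1 FPKM in MCK-Musclin libraries 1 to 3, so WT library 2 was the highest there as well.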
